A study of Mus musculus with 7 samples.

Results

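The trans-synaptic adhesion system of neurexins, neuroligins and Lrrtm proteins was examined in cerebellar granule cells through 8 genes, *Nrxn2*, *Nrxn3*, *Nlgn1*, *Nlgn2*, *Lrrtm1*, *Lrrtm2*, *Lrrtm3* and *Lrrtm4*, out of 21938 protein-coding genes of GENCODE M21. A peak was assigned to a gene when its centre lay in the gene or within 50 kb of either end (mm10), which is called the window of the gene. Distances of H3K27ac and Chd7 peaks from starts are from the summit. The windows held 62 of 31400 H3K27ac peaks, 4 of 1946 Chd7 peaks of WT cells and 0 of 96 Chd7 peaks of *Chd7*-deficient cells. They also held 31 of 17030 Top2b peaks of WT cells and 47 of 21505 Top2b peaks of *Chd7*-deficient cells.

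The study asked how the chromatin remodeller Chd7 and the topoisomerase Top2b bind in granule cells of the mouse cerebellum. Granule neuron progenitors (GNPs) were freshly isolated at P7 from mice labelled C57BL/6 (C57BL/6N in the study's methods) for ChIP-seq of H3K27ac (WT), Chd7 (WT) and Chd7 in the cells labelled Chd7 KO. Granule neurons (CGNs) were grown from P7 GNPs for 48 h without SHH, the growth factor that keeps progenitors dividing, for ChIP-seq of Top2b in WT and Chd7 KO cells. The libraries are of bulk cells, in which a weak site in many cells and a strong site in few cells cannot be told apart. Each condition was 1 library, so no spread between animals is available and no difference between conditions was tested. The Chd7 KO cells came from *Atoh1-Cre::Chd7 f/f* mice, in which Cre is active in the granule lineage, and the study states that some Chd7 protein remained in the posterior lobe. In its animal experiments the WT controls carried *Chd7 f/f* without Cre, whereas the labels of the WT libraries name no allele. Cells were taken from pups with no record of how many were pooled. As a check of the label, an H3K27ac peak lay within 1 kb of a start of 8 of 8 GNP marker genes, with fold enrichments over the local background of 3.55 to 31.6. Of genes marking other cerebellar cells, 1 of 4 Purkinje markers (*Rora*, 5.63), 2 of 4 glial markers (*Slc1a3*, 6.54, and *Gfap*, 3.53), 2 of 2 interneuron markers (*Gad1*, 4.34, and *Pax2*, 4.25), 1 of 2 microglial markers (*Csf1r*, 3.6) and 0 of 2 endothelial markers had such a peak. The part of those cells in the peaks of the synaptic genes was not tested. No H3K27ac library of CGNs was among the files, so their label was not checked.

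Neurexins sit in the presynaptic membrane and reach across the synaptic cleft to several families of postsynaptic partners, among them the neuroligins and the leucine-rich repeat proteins of the Lrrtm family. Neurexin genes are very long and have an upstream promoter for the long alpha forms and an internal promoter for the short beta forms. In the cerebellum, neurexins of granule cell axons are known for binding secreted cerebellin at their synapses with Purkinje cells. H3K27ac marks active promoters and enhancers, and Top2b relaxes DNA by passing a duplex through a break in another, which is known to matter for long neuronal genes.

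The 4 Chd7 peaks of WT GNPs at these genes lay in 3 of 8 windows. There were 2 at *Nrxn3*, 1 at *Nlgn2* and 1 at *Lrrtm3*. The genes are unequal in length, and longer windows hold more peaks by their size. Of genes of at least 100 kb, 2 of 5 (*Nrxn3* and *Lrrtm3*) had a Chd7 peak in the window, against 20.9% of all such genes. Of the shorter genes, 1 of 3 (*Nlgn2*) had a Chd7 peak, against 13.5% of all genes under 100 kb. With 8 genes these shares are descriptions, and nothing is read from their distance to the background. All of the 4 Chd7 peaks overlapped an H3K27ac peak, whereas 77.9% of all WT Chd7 peaks did. None of the 4 was matched in *Chd7*-deficient GNPs, whose 96 peaks reached the windows of 0.205% of all protein-coding genes. With 96 peaks against 1946 in WT, most WT Chd7 peaks were unmatched, so the lack of a match is not particular to the 8 genes.

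The sequences under these 4 summits are shown because they lie under the highest signal of the Chd7 peaks in these windows. Which bases are bound, and which gene a site serves, was not tested. Each sequence is the 201 bases centred on the summit, the position of the highest pileup of fragments, read from the plus strand of GRCm38.p6. They lie at chr12:89041624-89041824 and chr12:90113591-90113791 in introns of *Nrxn3*, at chr11:69838390-69838590 beside *Nlgn2*, and at chr10:64130474-64130674 upstream of *Lrrtm3*. The other window, chr12:89109642-89109842, is the summit of the strongest H3K27ac peak of *Nrxn3* that had no Chd7 peak. Capitals mark matches on either strand to 4 motifs. These were CAGATG, which reads CATCTG on the other strand, and CAGCTG, both E-boxes of the kind that proneural factors bind, then TTGGCA, the half-site of NFI factors, which reads TGCCAA on the other strand, and CAGCAGG, part of the site of Zic factors, which reads CCTGCTG on the other strand.
Nrxn3 upstream intronic Chd7 peak: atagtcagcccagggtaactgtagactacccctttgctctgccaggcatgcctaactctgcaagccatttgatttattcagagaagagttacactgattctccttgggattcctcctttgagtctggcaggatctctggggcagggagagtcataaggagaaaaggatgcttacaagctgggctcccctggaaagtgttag
Nrxn3 downstream intronic Chd7 peak: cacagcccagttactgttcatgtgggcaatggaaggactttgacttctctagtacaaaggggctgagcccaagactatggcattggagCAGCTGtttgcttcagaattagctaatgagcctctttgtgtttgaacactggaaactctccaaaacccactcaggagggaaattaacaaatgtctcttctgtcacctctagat
Nlgn2 Chd7 peak: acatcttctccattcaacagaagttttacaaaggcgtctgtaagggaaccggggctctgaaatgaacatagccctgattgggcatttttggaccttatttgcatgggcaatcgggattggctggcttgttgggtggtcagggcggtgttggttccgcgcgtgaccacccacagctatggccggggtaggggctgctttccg
Lrrtm3 Chd7 peak: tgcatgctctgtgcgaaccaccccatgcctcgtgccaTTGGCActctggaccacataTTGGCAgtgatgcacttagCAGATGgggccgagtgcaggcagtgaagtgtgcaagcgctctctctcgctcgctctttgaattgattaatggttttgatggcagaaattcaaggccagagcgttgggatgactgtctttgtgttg
Nrxn3 H3K27ac peak without Chd7: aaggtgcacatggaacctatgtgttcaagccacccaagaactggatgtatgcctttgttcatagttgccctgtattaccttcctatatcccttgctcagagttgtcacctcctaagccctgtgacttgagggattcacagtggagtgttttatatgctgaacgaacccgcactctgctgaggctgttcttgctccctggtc

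The window of *Lrrtm3* held 2 matches to TTGGCA and 1 to CAGATG. The downstream peak of *Nrxn3* held 1 match to CAGCTG. No match to these letters was present in the upstream peak of *Nrxn3*, in the window beside *Nlgn2* or in the *Nrxn3* window without Chd7, and CAGCAGG was in none of the 5. The matches did not overlap each other. Across the 1902 summit windows of WT Chd7 peaks on chromosomes 1 to 19, X and Y, 18.9% held TTGGCA, 23.7% CAGATG, 19.5% CAGCTG and 9.94% CAGCAGG on either strand. Across 31395 H3K27ac summit windows the shares were 9.68%, 15.1%, 12.3% and 8.18%. CpG dinucleotides numbered 9 beside *Nlgn2*, 7 at *Lrrtm3* and 0 in both *Nrxn3* windows with Chd7, against a median of 6 in all WT Chd7 windows. The *Nrxn3* window without Chd7 held 2.

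Of the neurexins, *Nrxn3* (chr12:88722876-90334935, plus strand) had the most peaks in both H3K27ac and Chd7. Its window of 1712.1 kb held 32 H3K27ac peaks, a number exceeded at 34 of 21938 genes, and 2 Chd7 peaks. Per length it was less extreme, with 1.87 H3K27ac peaks per 100 kb against a median of 1.10 in genes of at least 100 kb, of which 68.6% had fewer. All 32 peaks lay inside the gene, 30 of them in introns. Joined across gaps as super-enhancer callers do by default, they fell into 16 stretches, 8 of which were single peaks. The fold enrichment of these peaks ran from 2.20 to 15.1 with a median of 3.81, and the median of all H3K27ac peaks was 4.35. A few strong intronic peaks stood among many weak ones.

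The upstream Chd7 peak of *Nrxn3* (chr12:89041617-89041936) lay in an intron, with its summit 318.8 kb from the start of the gene and 88.3 kb from the nearest annotated start of *Nrxn3*. Its pileup was 18 fragments (95% exact Poisson interval 10.7 to 28.4, for counting error only), its fold enrichment 4.27 and its −log10 q-value 4.15. It lay inside a 2098 bp H3K27ac peak with a fold enrichment of 10.3, higher than 85.5% of all H3K27ac peaks. Around it 4 H3K27ac peaks joined into a stretch of 15.3 kb, which ranked 1788 of 17539 by width times pileup. The downstream Chd7 peak (chr12:90113478-90114040) lay in an intron 1390.8 kb from the start of the gene, beyond the internal start. Its pileup was 23 fragments (14.6 to 34.5), its fold enrichment 4.27 and its −log10 q-value 5.39, the only one of the 4 above 5. It lay in the H3K27ac peak with the highest fold enrichment at any of the 8 genes, 15.1, higher than 93.3% of all. Both Chd7 peaks were of middling strength for the library, where 58.5% and 58.8% of WT Chd7 peaks had a lower fold enrichment.

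Strong acetylation of *Nrxn3* was not limited to sites with Chd7. The peak at chr12:89108856-89110442, whose summit window is printed among the sequences, reached a fold enrichment of 14.4 with no Chd7 peak. Its neighbour at chr12:89105918-89106544 had 9.02, and an intronic peak of 3386 bp at chr12:89552409-89555794 had 8.95, also without Chd7. Over the 8 genes the 4 H3K27ac peaks with Chd7 had fold enrichments of 5.18 to 15.1 (median 8.64), and the 58 without had 2.20 to 14.4 (median 3.89). In the whole library the medians were 10.6 with and 4.25 without Chd7. The 4 acetylated sites with Chd7 were 6.45% of the 62 (95% Wilson interval 2.54 to 15.4%), against 4.98% of all H3K27ac peaks. The ranges with and without Chd7 overlapped.

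**Figure D1:**
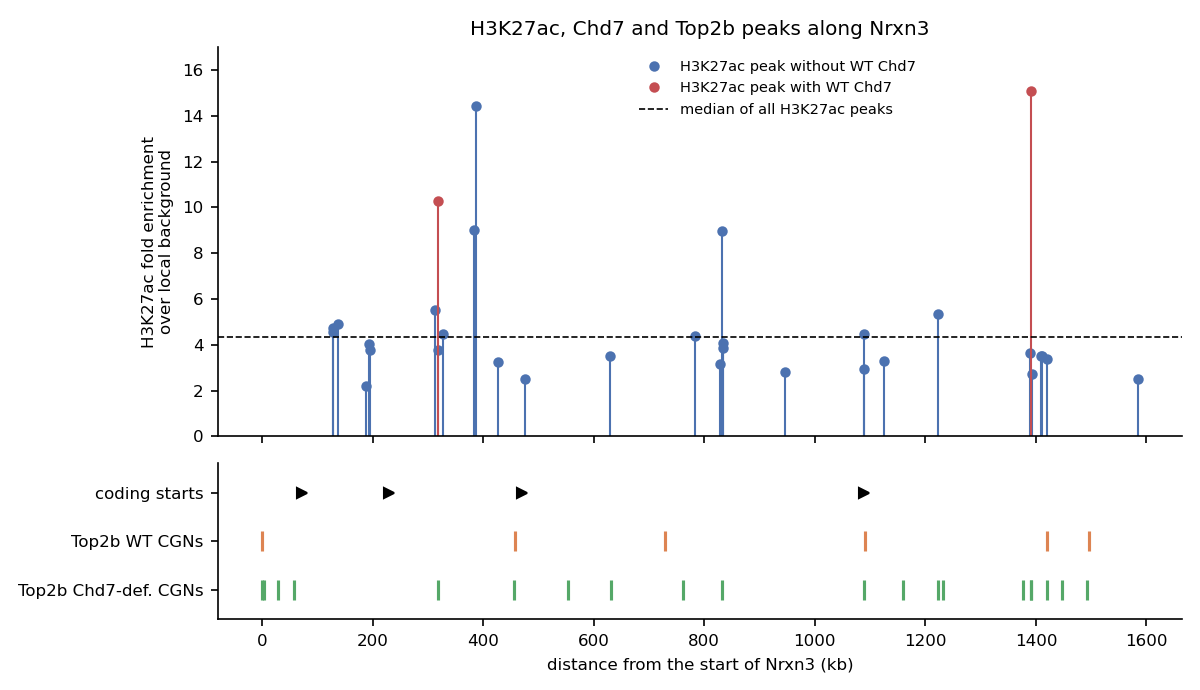
Fold enrichment of the H3K27ac peaks along *Nrxn3* by distance from the start of the gene in kb (upper panel; red, overlapping a WT Chd7 peak; dashed line, median of all H3K27ac peaks, 4.35), and coding starts and Top2b peaks (lower panel). Both Chd7 sites sit in tall H3K27ac peaks, 10.3 and 15.1, but a peak of 14.4 has no Chd7, and the Top2b row of *Chd7*-deficient CGNs holds 20 peaks against 6 in WT.

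*Nrxn2* (chr19:6418731-6544169, plus strand) had 12 H3K27ac peaks, or 5.32 per 100 kb, and 94.0% of genes of at least 100 kb had fewer per length. It had no Chd7 peak, and the nearest lay 442.8 kb from the gene. Its fold enrichments ran from 2.97 to 7.75 with a median of 3.83. The strongest peaks lay at its starts, 7.75 at the upstream start and 7.65 at the internal start, 79.1 kb further on. The others, up to 4.89, lay in introns, at an exon beside the start of *Gm14964* and in the flanks. *Nrxn2* was densely acetylated and led by its promoters, whereas the strongest peaks of *Nrxn3* were intronic.

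The start sites of the 8 genes divided into acetylated and not acetylated. An H3K27ac peak lay within 1 kb of a coding start of 4 of 8 genes, *Nrxn2*, *Nrxn3*, *Nlgn2* and *Lrrtm2*, against 45.6% of all protein-coding genes. In *Nrxn2* 5 of 8 annotated coding starts were acetylated, at the upstream end and at the internal start, and 3 starts 9.2 to 9.9 kb into the gene were not. In *Nrxn3* 1 of 4 was acetylated. This was the internal start, with H3K27ac peaks of 4.48 and 2.92 on its sides and neither over the start base itself. The upstream coding starts of *Nrxn3* had no H3K27ac peak nearer than 5.0, 35.7 and 55.6 kb. At *Nlgn1*, *Lrrtm1*, *Lrrtm3* and *Lrrtm4* the nearest H3K27ac peak lay 229.5, 38.3, 39.7 and 642.0 kb from any coding start. Thus these 4 genes had acetylated chromatin in their windows but none at their promoters in GNPs.

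Promoter sequences are shown for the starts that differ in acetylation. They come from the RefSeq promoter table of GRCm38.p6, 250 bases before to 50 after each start, which held 10 promoters of 6 of the 8 genes and none for *Nrxn2* and *Lrrtm2*. Capitals mark CpG dinucleotides, whose density is a known feature of promoters. The first listed *Nrxn3* promoter, called upstream here (chr12:88794254-88794553, plus strand), was not acetylated. Its start lies 71.6 kb into the gene, whereas the longest transcript, of 1609.9 kb, begins at the upstream end. Whether transcription begins at this listed start was not tested. The annotated starts at the upstream end of *Nrxn3*, of transcripts not annotated as coding, had no promoter entry and no H3K27ac peak within 1 kb. The internal *Nrxn3* promoter (chr12:89812233-89812532, plus strand) and the *Nlgn2* promoter (chr11:69837735-69838034, minus strand) were acetylated. The *Nlgn1* promoter (chr3:26331860-26332159, minus strand) was not.
Nrxn3 upstream promoter: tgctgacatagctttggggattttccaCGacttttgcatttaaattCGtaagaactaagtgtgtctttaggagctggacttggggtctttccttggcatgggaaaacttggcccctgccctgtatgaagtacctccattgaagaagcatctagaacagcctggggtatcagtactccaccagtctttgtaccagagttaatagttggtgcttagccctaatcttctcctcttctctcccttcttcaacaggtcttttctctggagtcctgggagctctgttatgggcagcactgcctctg
Nrxn3 internal promoter: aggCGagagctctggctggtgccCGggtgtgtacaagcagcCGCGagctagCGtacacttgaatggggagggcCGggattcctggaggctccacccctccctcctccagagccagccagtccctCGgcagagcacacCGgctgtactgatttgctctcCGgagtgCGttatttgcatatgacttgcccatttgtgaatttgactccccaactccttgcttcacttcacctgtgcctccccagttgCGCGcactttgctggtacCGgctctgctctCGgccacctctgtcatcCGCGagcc
Nlgn2 promoter: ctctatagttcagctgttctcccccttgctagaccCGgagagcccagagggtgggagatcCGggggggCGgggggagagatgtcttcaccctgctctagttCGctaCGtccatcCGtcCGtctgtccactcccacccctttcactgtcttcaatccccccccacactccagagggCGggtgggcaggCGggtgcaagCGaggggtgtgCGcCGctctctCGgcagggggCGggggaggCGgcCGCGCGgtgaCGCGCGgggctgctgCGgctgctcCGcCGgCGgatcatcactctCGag
Nlgn1 promoter: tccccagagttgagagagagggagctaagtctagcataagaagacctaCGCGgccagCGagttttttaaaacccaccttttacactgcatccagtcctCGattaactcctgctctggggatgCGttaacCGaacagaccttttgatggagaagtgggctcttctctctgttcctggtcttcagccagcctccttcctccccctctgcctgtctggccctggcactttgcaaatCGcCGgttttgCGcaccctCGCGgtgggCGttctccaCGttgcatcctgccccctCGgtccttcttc

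These promoters held 2, 16, 26 and 14 CpGs. Over all 32851 promoters of the table the median was 7, with 22 for those having an H3K27ac peak within 1 kb and 4 for those without. Among the 10, the 2 acetylated promoters, the internal one of *Nrxn3* and that of *Nlgn2*, had the highest CpG counts. The acetylated starts of *Nrxn2* and *Lrrtm2* were not among the 10. *Nlgn1* came close with 14 CpGs and no acetylation, at a count that 63.7% of all promoters stayed below. The remaining promoters without H3K27ac had 10 CpGs at *Lrrtm3*, 9 and 4 at *Lrrtm4*, 7 at *Lrrtm1*, 6 at the second listed *Nlgn1* start and 6 at another upstream *Nrxn3* start. The unacetylated promoters ran from 2 to 14 CpGs, below both acetylated ones. The motif CG alone was in 93.6% of the Chd7 and 91.0% of the H3K27ac summit windows described with the summit sequences.

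**Figure D2:**
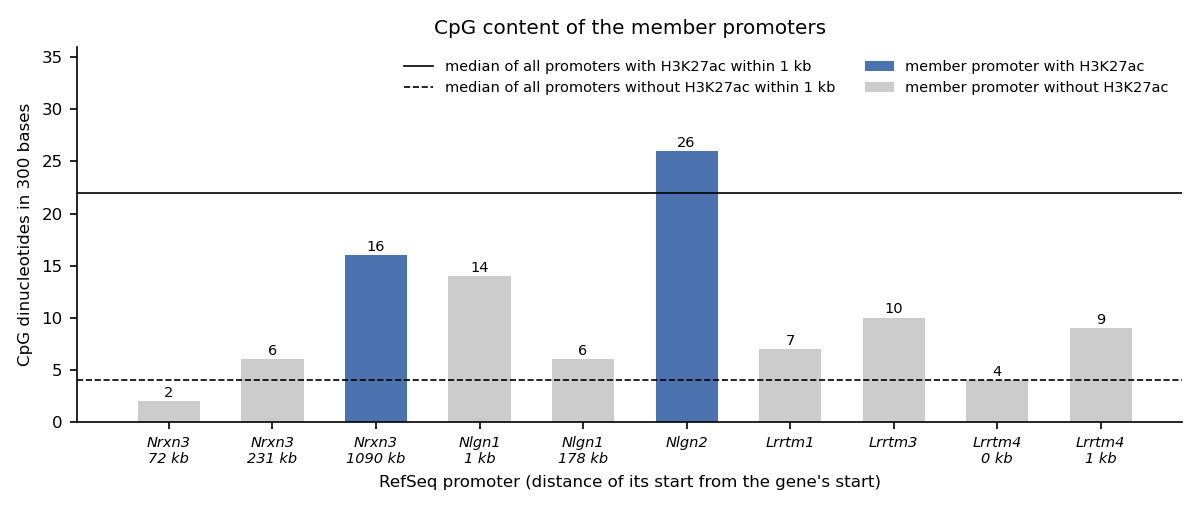
Number of CpG dinucleotides in each 300-base RefSeq promoter of the synaptic genes (bars; blue with and grey without an H3K27ac peak within 1 kb; labels give the distance of the start from the start of the gene). The lines are the medians of all promoters with (22, solid) and without H3K27ac (4, dashed). Of the promoters shown, only *Nlgn2*, with 26, exceeds the upper line. *Nrxn2* and *Lrrtm2* are not shown.

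Of the neuroligins, *Nlgn2* (chr11:69823122-69837784, minus strand), which acts at inhibitory synapses, was the only one of the 8 genes with a Chd7 peak within 1 kb of its own start. The Chd7 peak (chr11:69838053-69838628) had its summit 0.7 kb upstream of the *Nlgn2* start and 24 bp from the start of *Tmem256*, which is transcribed in the other direction, so the peak cannot be assigned to either gene. Its pileup was 21 fragments (13.0 to 32.1), its fold enrichment 3.41 and its −log10 q-value 3.19. This was the weakest of the 4 by fold enrichment, and 16.8% of WT Chd7 peaks were lower. It lay in a 2646 bp H3K27ac peak with a fold enrichment of 6.99 that covered both starts. A stronger peak of 11.4 stood at the start of *Plscr3*, a neighbouring gene 9.1 kb upstream of *Nlgn2*. The window of *Nlgn2* also touches 13 other protein-coding genes, so its 4 H3K27ac peaks are not all its own.

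The stretch of joined H3K27ac peaks over *Nlgn2*, 24.8 kb with 3 peaks, ranked 594 of 17539 and was among the 612 that passed the slope rule used here for super-enhancer-like regions. It was the only such stretch over 1 of the 8 genes, and 4.18% of all protein-coding genes overlapped one. This call rested on the settings: it was lost when peaks were joined within 5 kb, when width was multiplied by fold enrichment, and when peaks within 1 kb of a start were left out. Between 50 and 100 kb from *Nlgn2* there were 2 more Chd7 peaks, at the starts of *Polr2a* (fold enrichment 4.16) and *Neurl4* (5.99), outside the window.

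*Nlgn1* (chr3:25426215-26332460, minus strand), the neuroligin of excitatory synapses, had 3 H3K27ac peaks in a window of 1006.2 kb. That was 0.298 per 100 kb, and 17.8% of genes of at least 100 kb had fewer. All 3 lay in introns. The strongest, chr3:25903067-25904187, had a fold enrichment of 8.57 and lay 428.8 kb from the start of the gene, and the other 2 had 4.03 and 3.15. No Chd7 peak was nearer than 282.5 kb to the gene. The 2 neuroligins thus differed in GNPs. An H3K27ac peak covered the start of *Nlgn2*, together with that of *Tmem256*, and none lay within 1 kb of a coding start of *Nlgn1*.

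The Lrrtm genes, whose proteins are postsynaptic partners of neurexins at excitatory synapses, include 3 that lie within genes of alpha-catenins. *Lrrtm3* (chr10:63928472-64090277, minus strand) lies within *Ctnna3* and was the only Lrrtm gene with Chd7. The Chd7 peak (chr10:64130446-64130808) lay 40.3 kb upstream of its start, within an intron of *Ctnna3*, and its nearest annotated start was that of *Lrrtm3*. Its pileup was 22 fragments (13.8 to 33.3), its fold enrichment 3.53 and its −log10 q-value 3.64. It overlapped an H3K27ac peak with a fold enrichment of 5.18 over 78.5% of its width. The other H3K27ac peak of *Lrrtm3*, at 4.18, lay in an intron 40.0 kb into the gene. Both H3K27ac peaks of *Lrrtm3* were distal, on either side of an unmarked promoter.

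*Lrrtm1* (chr6:77242689-77257791, plus strand), inside *Ctnna2*, had 1 H3K27ac peak in its window, downstream of the gene, with a fold enrichment of 3.15, and its body held none. *Lrrtm4* (chr6:80018877-80810143, plus strand) had 4 intronic peaks of 3.14 to 5.34, 642.9 to 782.1 kb from its start, at 0.449 per 100 kb. Neither had a Chd7 peak, with the nearest at 166.9 kb from *Lrrtm1* and 75.3 kb downstream of *Lrrtm4*, the latter without H3K27ac (fold enrichment 3.61, −log10 q-value 1.95). *Lrrtm2* (chr18:35209003-35215024, minus strand), inside *Ctnna1*, was the only Lrrtm gene with an H3K27ac peak at its start. Its 4 peaks had fold enrichments of 2.95 to 9.11, and the highest lay over the start. The summit of that peak was 283 bp from the *Lrrtm2* start and 205 bp from a start of *Ctnna1*, so the peak cannot be assigned to either gene. The nearest Chd7 peak was 189.7 kb from *Lrrtm2*. Among the Lrrtm genes, an H3K27ac peak at the start and a Chd7 peak in the window were thus found at different members.

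**Figure D3:**
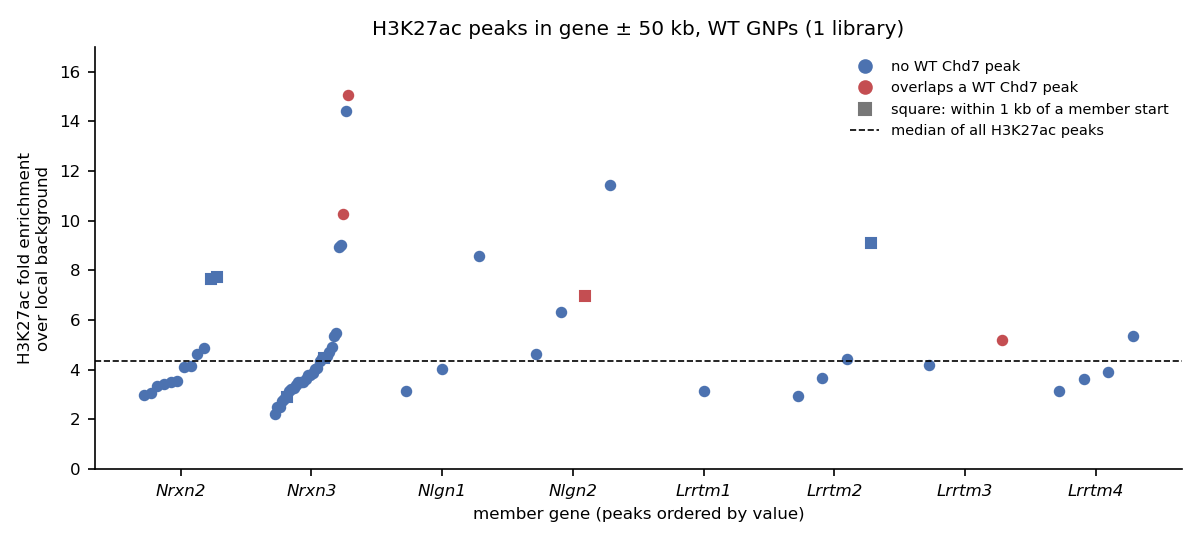
Fold enrichment of each H3K27ac peak within 50 kb of the 8 genes in WT GNPs (1 library), ordered by value within a gene (red, overlapping a WT Chd7 peak; squares, within 1 kb of a start of that gene; dashed line, median of all H3K27ac peaks, 4.35). Of the 62 peaks 26 lie above the line, and the 4 with Chd7 are among them.

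By position, the 62 H3K27ac peaks comprised, by summit, 43 in introns of the 8 genes (median fold enrichment 3.77), 6 within 1 kb of their own starts (7.32), 3 in their other exons (4.64), 3 at the starts of other genes (4.13) and 7 elsewhere in the flanks (3.53). Chd7 met 2 of the intronic peaks, 1 of those at starts and 1 in the flanks. All 8 genes had at least 1 H3K27ac peak in the window, against 73.5% of all protein-coding genes, and 7 of 8 had one in the gene itself. The median over the 8 genes of the highest fold enrichment in the window was 8.16, and over all protein-coding genes it was 8.09, with 0 entered for a gene without a peak. The number of peaks had a median of 4 in the 8 genes, 3 in genes of at least 100 kb and 2 in all genes. In genes of at least 100 kb the median of the highest fold enrichment was 8.62. By this measure the best site in these windows was close in strength to that of other genes. For *Nlgn2* that site, at 11.4, was the peak at the start of *Plscr3*.

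**Figure D4:**
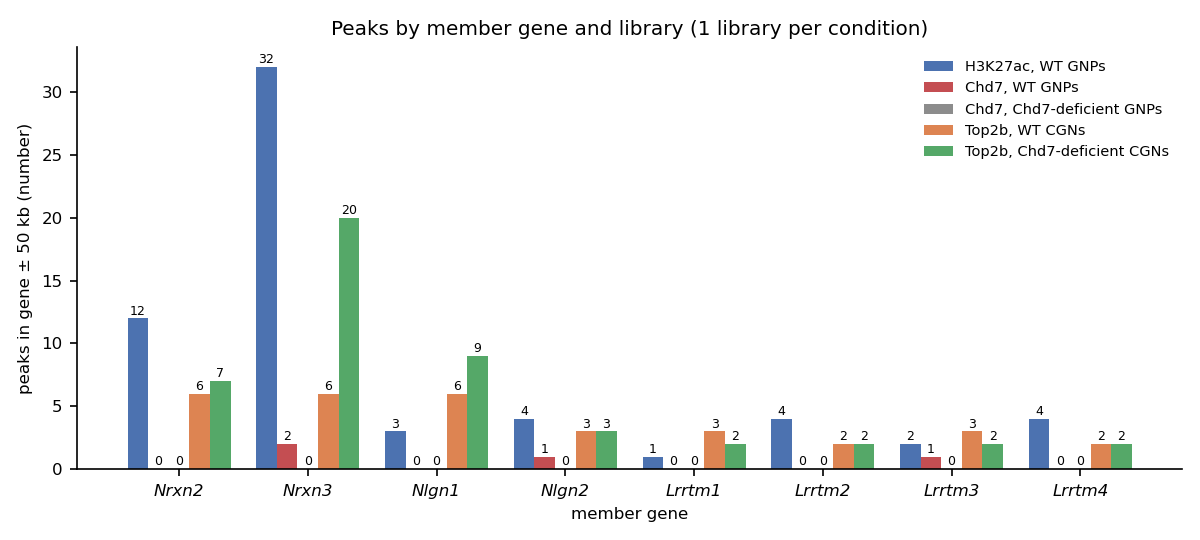
Number of peaks within 50 kb of each gene in each of the 5 libraries, 1 library per condition. *Nrxn3* has the highest bar in H3K27ac (32) and in Top2b of *Chd7*-deficient CGNs (20), and the bars for Chd7 in *Chd7*-deficient GNPs are all 0.

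Top2b was mapped in CGNs, a later stage than the GNPs of the other libraries, as peak positions of fixed width (396 bp in WT and 400 bp in *Chd7*-deficient CGNs) with no height. All 8 genes had at least 1 Top2b peak in the window in each genotype, against 62.2% of all protein-coding genes in WT and 71.0% in *Chd7*-deficient CGNs. Longer windows hold more, and genes of at least 100 kb had a median of 2 peaks in WT and 3 in *Chd7*-deficient CGNs. For shorter genes the median was 1 in each. *Nrxn3* had 6 peaks in WT and 20 in *Chd7*-deficient CGNs. *Nlgn1* had 6 and 9, *Nrxn2* 6 and 7, *Nlgn2* 3 and 3, *Lrrtm1* and *Lrrtm3* 3 and 2 each, and *Lrrtm2* and *Lrrtm4* 2 and 2 each. So 3 genes had more, 2 fewer and 3 equal numbers in *Chd7*-deficient CGNs.

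The difference at *Nrxn3* was the largest of the 8. The other 7 genes together had 25 peaks in WT and 27 in *Chd7*-deficient CGNs, whereas *Nrxn3* alone went from 6 to 20, a ratio of 3.33, against 1.26 for all peaks of the libraries. A surplus of 14 or more peaks in *Chd7*-deficient CGNs was found at 4 of 21938 protein-coding genes, *Nrxn3* included. The cut of 14 was the surplus of *Nrxn3* itself, and the count is not matched for length. Longer windows hold more peaks, and genes under 100 kb had a median of 1 in each genotype. Among the 2492 genes of at least 100 kb, 48.0% had more peaks in *Chd7*-deficient and 30.7% more in WT CGNs. The 20 peaks were unevenly spread. Upstream of the internal start there were 10 over 1089.6 kb (0.918 per 100 kb), and after it 10 over 522.5 kb (1.91 per 100 kb). WT had 3 in each stretch (0.275 and 0.574 per 100 kb). With 1 library per genotype, and with libraries that also differ in their total number of peaks, genotype and library cannot be told apart.

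**Figure D5:**
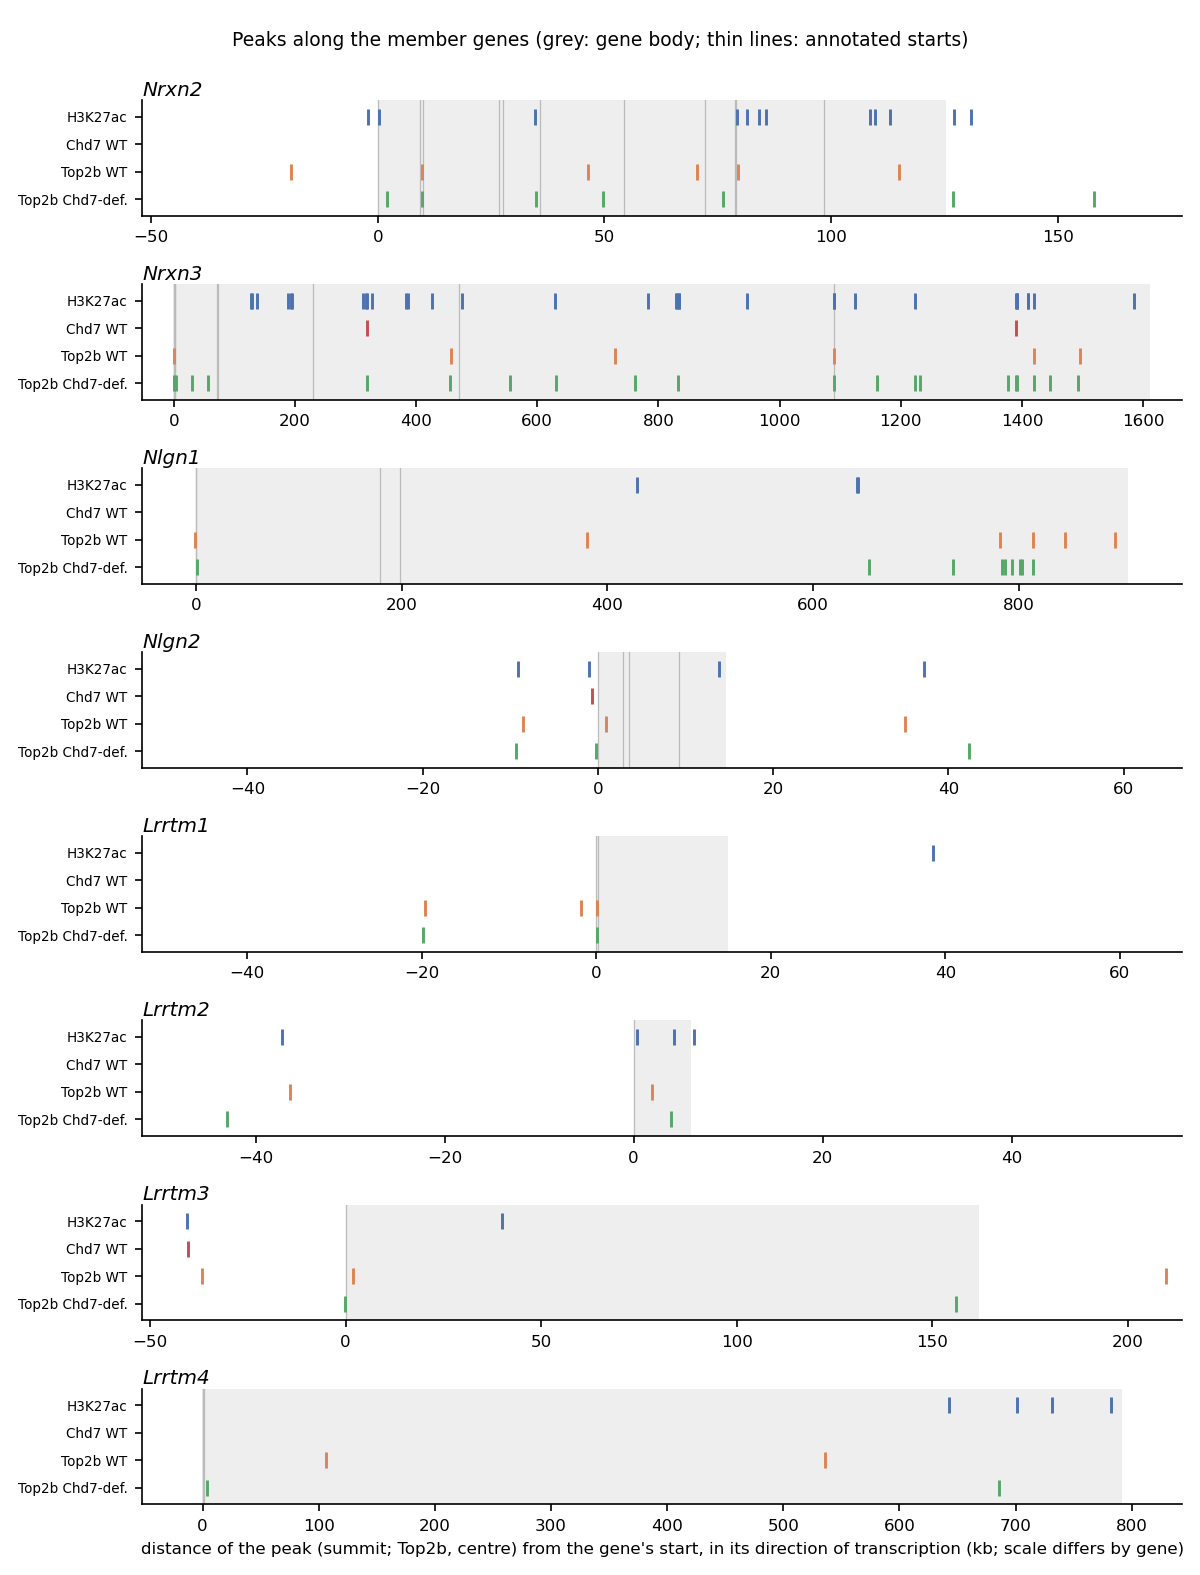
Positions of the peaks of 4 libraries (summits, and centres for Top2b) along each of the 8 genes and 50 kb on both sides, by distance from the start of the gene in kb in its direction of transcription (grey, gene body; thin lines, annotated starts; the scale differs by gene). The Chd7 row is empty for 5 genes, and the surplus of Top2b peaks in *Chd7*-deficient CGNs is seen on both sides of the internal start of *Nrxn3*.

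Few called Top2b peaks overlapped between genotypes. At the 8 genes 7 sites overlapped, 22.6% of the WT peaks and 14.9% of those of *Chd7*-deficient CGNs, against 16.8% and 13.3% in the whole libraries. Overlap of separately called lists depends on the calling threshold, and without heights a peak missing from 1 list cannot be called lost. The study compared Top2b signal between the genotypes and reported altered binding at a minority of sites. In *Chd7*-deficient CGNs it found more genes with decreased than with increased Top2b peaks. The number of called peaks, higher in total in *Chd7*-deficient CGNs, is a different measure. The shared sites were 3 at *Nrxn3*, 2 at *Lrrtm1* and 1 each at *Nrxn2* and *Nlgn1*. At *Nrxn3* they were the upstream end of the gene, the internal start and the intron 1419.5 kb from the start. At *Lrrtm1* they were the start itself and a site 19.6 kb upstream. Thus the *Lrrtm1* start, without H3K27ac in GNPs, had Top2b in both libraries of CGNs. Within 1 kb of an annotated start of their own gene lay 7 WT peaks and 9 peaks of *Chd7*-deficient CGNs, and 14 of 31 and 32 of 47 lay in introns.

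Top2b at acetylated sites of GNPs was a minority. Of the Top2b peaks at the 8 genes 5 in WT (16.1%) and 11 in *Chd7*-deficient CGNs (23.4%) overlapped an H3K27ac peak, against 17.4% and 26.6% of all. Seen from H3K27ac, 5 of 62 peaks overlapped Top2b of WT (8.06%, 3.49 to 17.5%) and 10 of 62 that of *Chd7*-deficient CGNs (16.1%, 9.0 to 27.2%), against 9.38% and 18.3% of all H3K27ac peaks. These shares were all close to the background. At the 4 Chd7 sites, however, 0 overlapped a WT Top2b peak and 3 a Top2b peak of *Chd7*-deficient CGNs, where 16.6% and 34.2% of all WT Chd7 peaks did. The 3 were both *Nrxn3* sites and the site beside *Nlgn2*. The nearest WT Top2b peak lay 139.0 and 28.1 kb from the *Nrxn3* sites, 1.0 kb from that of *Nlgn2* and 3.29 kb from that of *Lrrtm3*. With 4 sites and 1 library for each genotype these counts are descriptions only.

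The other synaptic adhesion genes were described by 4 lists of 51 genes. A Chd7 peak of WT GNPs lay in the window of 17 of 51 (33.3%), against 3 of 8 here (37.5%) and 14.3% of all protein-coding genes. The lists are rich in long genes, and 12 of their 26 genes of at least 100 kb had Chd7 (20.9% of all such genes) as did 5 of 25 shorter ones (13.5%). Of secreted and trans-synaptic partners of neurexins, 5 of 15 had Chd7. *Adgrl2*, a latrophilin, had the strongest peak (fold enrichment 4.27), followed by *Clstn2*, a calsyntenin (3.99), and *Dag1*, dystroglycan (3.72). *Cbln1*, the cerebellin of granule cells, was named for its role and had no Chd7 peak but an acetylated start.

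Of receptor phosphatases and their partners, another presynaptic hub, 4 of 12 had Chd7, led by *Ntrk3* (5.15), *Ptprd* (4.46) and *Ptprf* (4.24). Of other adhesion pairs 5 of 15 had Chd7, led by *Cadm1* (4.6), *Tenm4* (4.44) and *Tenm2* (4.29). Of inhibitors and intracellular partners 3 of 9 had Chd7, namely the scaffold gene *Dlg4* (5.12), *Mdga1* (4.99), whose protein blocks neuroligins from neurexins, and *Cask* (4.44), which binds the tails of neurexins. Each list had a peak at or above the 4.27 of *Nrxn3*, and the median of the best H3K27ac fold enrichment ranged from 6.09 for receptor phosphatases to 13.4 for inhibitors and intracellular partners.

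The genes of these lists most like *Nrxn3* in the number and best fold enrichment of H3K27ac and WT Chd7 peaks, as Euclidean distance over 4 log2 values from 2 libraries, were *Ptprd* (0.66), *Cadm2* (0.85) and *Ptprs* (1.21). *Ptprd* had 28 H3K27ac and 2 Chd7 peaks and is 2270.7 kb long, *Cadm2* had 22 and 1 over 965.5 kb, and *Ptprs* had 20 and 2 over 64.1 kb. Their Top2b peaks in WT and *Chd7*-deficient CGNs numbered 7 and 10 at *Ptprd*, 4 and 5 at *Cadm2* and 4 and 6 at *Ptprs*. At *Nrxn3* they numbered 6 and 20. Other listed genes also had unequal counts. *Tenm4*, a long teneurin gene, had 11 and 24, *Adgrl2* had 1 and 6, and *Tenm3* went the other way with 12 and 5. These 3 were named after their values were seen. The closest of the 8 genes to *Nrxn3* was *Nlgn2*, at 2.83.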

How the data were processed

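ChIP-seq peak tables of 5 libraries were used, 3 of GNPs and 2 of CGNs, and the input libraries were not analysed here. Reads were trimmed and aligned by the authors to mm10 using bowtie 1.0.0, with reads of a single alignment kept (tools per the labels). Peaks were called for each library with macs2 defaults for Chd7 and H3K27ac and with homer for Top2b. Which control macs2 used is not given in the sources used here. The deposited pileup is a coverage signal at the summit, whole for Chd7 and scaled for H3K27ac. The deposited fold enrichment, −log10 p and −log10 q had lost their decimal points, which were restored by dividing by 100000. On the −log10 scale, Poisson p-values recomputed from pileup and background differed from the restored ones by no more than 0.0026 in H3K27ac and 0.00022 in either Chd7 table. The Top2b files hold positions only. The number of reads of each library is not in the tables, and the study's methods give only a common lower bound, so depth could not be compared between libraries.

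Peaks were assigned by centre to GENCODE M21 genes with 50 kb on each side and compared by an overlap of at least 1 bp. H3K27ac peaks were joined at the default stitching distance of the ROSE and homer super-enhancer callers and ranked by summed width times pileup, and stretches past the point where the scaled rank curve has a slope of 1 were called super-enhancer-like. Wilson and exact Poisson intervals (95%) cover counting error only. All 8 genes, each Chd7 peak in their windows, and each gene's strongest and start-site H3K27ac peaks were named, with the 3 genes of highest Chd7 fold enrichment per list. The genes and lists were chosen with earlier results of these data known. The counting steps were tested on simulated data. Sequences came from GRCm38.p6 and its RefSeq promoter table. Scripts ran in Python 3.11.15 with pandas 2.3.3, numpy 2.4.6, pysam 0.24.0, scipy 1.17.1 and, for figures, matplotlib 3.10.9.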

Additional observations from a re-analysis of the deposited data

How the results depend on the processing

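Of 48 recounts of 11 results under other settings, 34 stayed within 1.5 times the reported count and 14 moved. With peaks in the gene body only, the 4 WT Chd7 peaks became 2, in 1 gene instead of 3, with 2 overlaps counted from either side. With 100 kb on each side there were 7 WT Chd7 peaks. At a stricter −log10 q threshold of 5, 1 WT Chd7 peak was left, in 1 gene, with 1 overlap from either side, and 9 instead of 17 listed genes had one. Requiring an overlap of 50% of the H3K27ac peak left 0 of 4, since Chd7 peaks are narrower, and counted from Chd7 the 4 stayed. The super-enhancer-like stretch at *Nlgn2* was lost (0 genes) with joining within 5 kb, with ranking by fold enrichment and without peaks near starts. Recounts of acetylated starts were chosen after seeing the data and gave 3 (peak over the start base) and 4 (within 5 kb), against 4. Ranking Top2b peaks by score was not run, as the files hold none. No paired analysis was possible because each condition was 1 library. The exact depth of each library was not known, which limits every comparison of counts between libraries.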
